A study of Bos taurus with 48 samples.

Results

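The whole blood transcriptome of Holstein-Friesian (H-F) and Jersey (J) bull calves was compared in how far it moved between d -14, the day before the milk replacer allowance was first reduced, and d 8, when the calves had been off milk replacer for 8 d. For each calf and each gene the log2 CPM (the level of a gene's reads relative to the total of its library) at d -14 was subtracted from that at d 8, and the 8 differences of the J calves were set against the 8 differences of the H-F calves. This breed difference in the change, which is the interaction of breed and day, rested on 32 of the 48 libraries of the series and on 16 calves. The other 16 libraries were taken from the same calves on d 1.

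The 4 groups were H-F at d -14, J at d -14, H-F at d 8 and J at d 8, with 8 calves in each and the same calves on both days. All calves were males reared indoors in groups, were fed milk replacer and concentrate by an automatic feeder, and were weaned by the same gradual reduction of milk replacer, so no group stayed on milk. Library labels gave breed and day but no age. By the study's methods all H-F calves had one farm of origin while the J calves had more than one, and the J calves were older and lighter on arrival. Before weaning only the H-F calves had a stated limit on concentrate, and their allowance was raised after weaning. By the same methods they did not reach it. Breed, farm of origin and age therefore cannot be told apart here.

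Weaning moves a calf from milk, digested in the abomasum and intestine, to solid feed that is fermented in the rumen. Whole blood holds neutrophils, monocytes, lymphocytes, red cells and platelets, each with its own transcripts, and its profile shifts when their proportions shift or when cells respond to cytokines, stress hormones or metabolites. A test of the interaction asks a different question from a test within each breed, because a gene can pass a threshold in one breed and miss it in the other while the breeds do not differ measurably.

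Library totals ran from 28398400 to 37763900 counts. The d 8 libraries of H-F calf 25 and J calf 85 stood apart from their groups, with root mean square distances from the group median of 0.481 and 0.493 on the log2 scale. The other libraries of the 4 groups had distances of 0.242 to 0.349. The changes of these calves were also the largest of their breeds, so results were recomputed without each of them and without both. Gene symbols were available for 670 of the 12566 genes tested, all from the study's own lists of genes that differed between the breeds at d -14, d 1 or d 8. A gene listed by the study at d 8 but not at d -14, or the reverse, passed its thresholds on only 1 of these days, in these same libraries. Such a listing favours genes whose breed gap moved, although a gene can miss a threshold with little change of its gap. Counts over named genes are therefore not independent evidence of a direction, and 104 of the 670 (15.5%) had an unadjusted p under 0.05 for the comparison described here. In every library the summed levels of B cell genes (at least 552 CPM) and platelet genes (at least 109 CPM) were far above the CPM minimum of 1. Markers of neutrophils and red cells were largely without a symbol here.

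No gene passed an adjusted p under 0.1 for the breed difference in the change with edgeR's quasi-likelihood test and calf as a block (0 of 12566 genes, 0%). The smallest adjusted p was 0.163, for TAC3. At an unadjusted p under 0.05 there were 724 genes (5.76%, close to the threshold of 0.05 itself), of which 358 (2.85%) had a change that was higher in J than in H-F calves and 366 (2.91%) a change that was lower. limma-trend on the changes of the calves also passed 0 genes (757 at an unadjusted p under 0.05), whereas DESeq2 passed 18 (808 unadjusted), 2 with a higher and 16 with a lower change in J calves. The 10 of these with a symbol were TAC3 (DESeq2 adjusted p = 0.00270), SEC14L5 and LY6G6C (0.00830), NRIP3 and FHL1 (0.0161), PDZK1IP1 (0.0539), LTC4S (0.0566), and EPHX4, PF4 and MERTK (0.0941 each).

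The 724 genes were chosen on the difference of the changes, so the signs of the changes follow largely from that choice and are given as a description. Of the 366 with a lower change in J calves, 360 had a change above 0 in H-F calves, and of the 358 with a higher change in J calves, 350 had a change below 0 in H-F calves. In 577 of the 724 genes the fitted changes of the breeds had opposite signs. No gene, however, moved one way in all 8 H-F calves and the other way in all 8 J calves. The breed gap was smaller at d 8 than at d -14 in 358 of the 724.

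**Figure D1:**
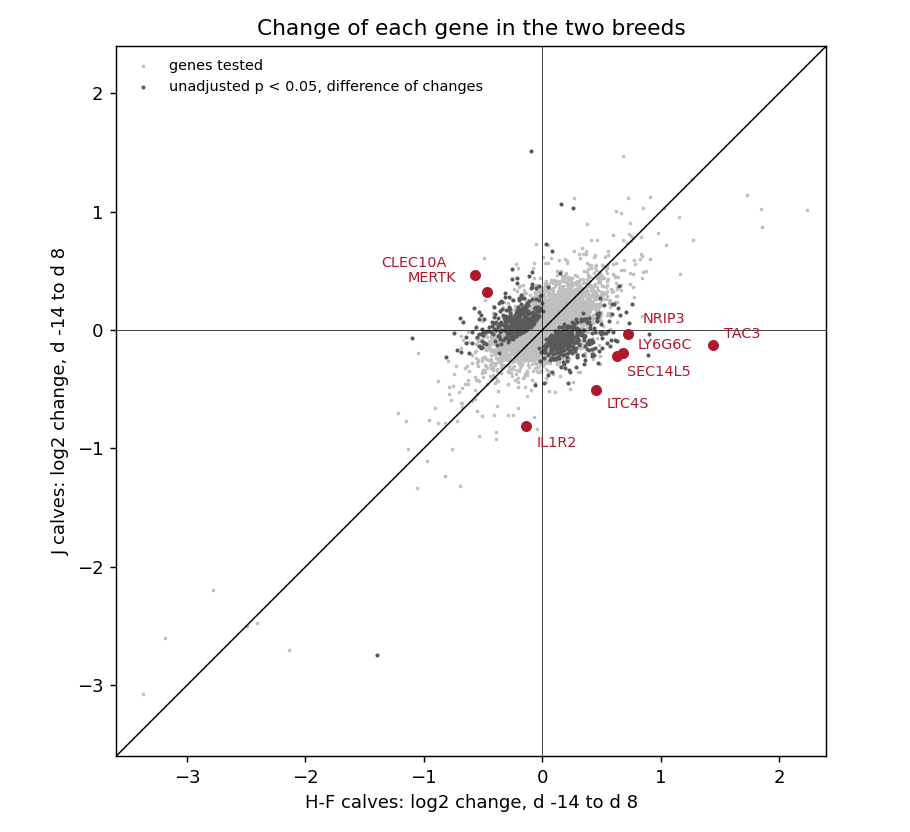
Fitted log2 change from d -14 to d 8 in H-F calves (x axis) and J calves (y axis) for the 12566 genes tested. Dark points are the 724 genes with an unadjusted p under 0.05 for the difference of the changes, red points are named genes, and the diagonal marks equal changes. Most dark points lie in the upper left and lower right, with TAC3 farthest to the right among the labelled genes.

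The precision of the comparison was bounded by its intervals. The 95% interval of the breed difference in the change lay within 2-fold either way for 12344 genes (98.2%) and within 1.5-fold for 10804 (86.0%). Among the 3142 genes of lowest expression the shares were 94.0% and 60.5%, and among the 3142 of highest expression 99.8% and 97.3%. The median standard error was 0.105 on the log2 scale.

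TAC3 encodes the precursor of neurokinin B, a peptide of the tachykinin family. Its level in the H-F calves was 7.87, 29.4 and 50.3 CPM (lowest, median and highest) at d -14 and 22.9, 70.4 and 132 CPM at d 8. In the J calves it was 11.8, 40.8 and 60.2 CPM at d -14 and 10.1, 38.4 and 54.9 CPM at d 8. TAC3 was higher at d 8 in 8 of 8 H-F calves and in 3 of 8 J calves. It rose in H-F calves by 1.44 on the log2 scale (SE 0.19, edgeR adjusted p = 0.00141) and its change in J calves was -0.13 (SE 0.19, adjusted p = 0.840). The breed difference in the change was -1.57 (SE 0.27, 95% interval -2.14 to -1.01, edgeR adjusted p = 0.163), the smallest p of any gene. Its adjusted p ranged from 0.00270 with DESeq2 to 0.9997 without the calf block over 25 alternatives, 6 of which passed the threshold, and the difference from -1.77 to -1.41. The changes of the breeds overlapped because H-F calf 33 changed by only 0.04, whereas the other H-F calves changed by 1.26 to 2.02 and the J calves by -1.38 to 0.63. Without H-F calf 33 the difference was -1.77 with an edgeR adjusted p of 0.00295.

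SEC14L5, LY6G6C, NRIP3, FHL1 and PDZK1IP1, 5 more of the 12 genes of smallest p with a lower change in J calves, all rose in H-F calves, and none passed the threshold in J calves. LY6G6C, which encodes a surface protein of the Ly-6 family from the major histocompatibility complex region, was at 6.33, 17.7 and 37.2 CPM in H-F calves at d -14 and at 12.5, 31.4 and 64.0 CPM at d 8. In J calves it was at 6.36, 10.5 and 21.6 CPM and then at 6.69, 8.73 and 19.2 CPM. It was higher at d 8 in 7 of 8 H-F and 2 of 8 J calves, and the difference of the changes was -0.88 (SE 0.18, edgeR adjusted p = 0.363). SEC14L5, of a family of lipid-binding proteins, had medians of 2.28 and 3.32 CPM in H-F calves at d -14 and d 8 and of 2.61 and 2.22 CPM in J calves, with a difference of -0.85 (SE 0.16, edgeR adjusted p = 0.190). NRIP3 was higher at d 8 in 8 of 8 H-F calves, by 0.42 to 1.17, while the J calves ranged from -0.60 to 0.58, and the difference was -0.76 (SE 0.16). PDZK1IP1, a small membrane protein, was likewise higher in 8 of 8 H-F calves, by 0.18 to 0.86, and ranged from -0.80 to 0.30 in J calves. FHL1, a LIM-domain scaffold protein, had medians of 126 and 174 CPM in H-F calves and 115 and 108 CPM in J calves. In all 5 genes the ranges of the calf changes overlapped between the breeds.

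LTC4S and EPHX4 completed the symbols of that group. LTC4S makes the first cysteinyl leukotriene, an inflammatory lipid. It had medians of 3.33 and 4.41 CPM in H-F calves and of 2.37 and 1.37 CPM in J calves, and was higher at d 8 in 7 of 8 H-F and 2 of 8 J calves. It rose in H-F calves (0.46, edgeR adjusted p = 0.0864), its change was -0.51 in J calves (adjusted p = 0.295), and the difference was -0.96 (SE 0.21, adjusted p = 0.485). The epoxide hydrolase gene EPHX4 was higher in J calves on both days, with a breed gap of 1.15 at d -14 and 0.65 at d 8 on the log2 scale, and was lower at d 8 than at d -14 in 7 of 8 J calves. The remaining 4 of the 12 had no symbol. ENSBTAG00000018281 differed by -0.40 (SE 0.09). ENSBTAG00000013178 fell in both breeds and was lower at d 8 in 16 of 16 calves, with changes of -1.40 in H-F calves (SE 0.22, edgeR adjusted p = 0.00298) and -2.75 in J calves (SE 0.24, adjusted p = 7.17e-06). The difference of its changes was -1.35 (SE 0.32, adjusted p = 0.627).

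The 12 genes of smallest p with a higher change in J calves had larger p than the 12 above. MERTK, a receptor tyrosine kinase through which phagocytes take up dying cells, led them. It was at 5.26, 9.43 and 11.5 CPM in H-F calves at d -14 and at 4.69, 6.51 and 9.18 CPM at d 8, and at 5.19, 7.19 and 11.3 CPM and then 7.28, 8.18 and 17.0 CPM in J calves. MERTK was lower at d 8 in 8 of 8 H-F calves and higher in 6 of 8 J calves. It fell in H-F calves (-0.46, SE 0.14, edgeR adjusted p = 0.0868), its change in J calves was 0.32 (SE 0.14, adjusted p = 0.466), and the difference was 0.78 (SE 0.20, adjusted p = 0.655). J calf 13, at 1.44, gave the largest change, and without it the difference was 0.62 (edgeR adjusted p = 0.840).

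FOS, a subunit of the AP-1 transcription factor that is induced within minutes of cell stimulation, was at 34.0, 42.3 and 66.0 CPM in H-F calves at d -14 and at 24.9, 31.5 and 57.3 CPM at d 8. In J calves it was at 15.8, 22.4 and 35.3 CPM and then at 18.7, 27.1 and 39.1 CPM. It was lower at d 8 in 8 of 8 H-F calves and higher in 5 of 8 J calves, a difference of 0.52 (SE 0.15, edgeR adjusted p = 0.775), and its breed gap went from -0.83 at d -14 to -0.33 at d 8. ASPH, an aspartate hydroxylase, was lower at d 8 in 7 of 8 H-F calves and higher in 7 of 8 J calves (0.48, SE 0.15). FAM167A was lower at d 8 in 8 of 8 H-F calves and in 6 of 8 J calves (0.58, SE 0.18). The cadherin gene CDH20 was lower in 6 of 8 H-F calves and higher in 7 of 8 J calves (0.57, SE 0.17), on top of a level that was already higher in J calves at d -14. FOS and FAM167A fell in H-F calves (edgeR adjusted p = 0.0817 and 0.0243), as did ASPH (adjusted p = 0.0584), and none of these genes passed the threshold in J calves. The other 7 of the 12 had no symbol. Those of smallest p were ENSBTAG00000012252 (0.58, SE 0.15) and ENSBTAG00000018114 (0.41, SE 0.11).

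**Figure D2:**
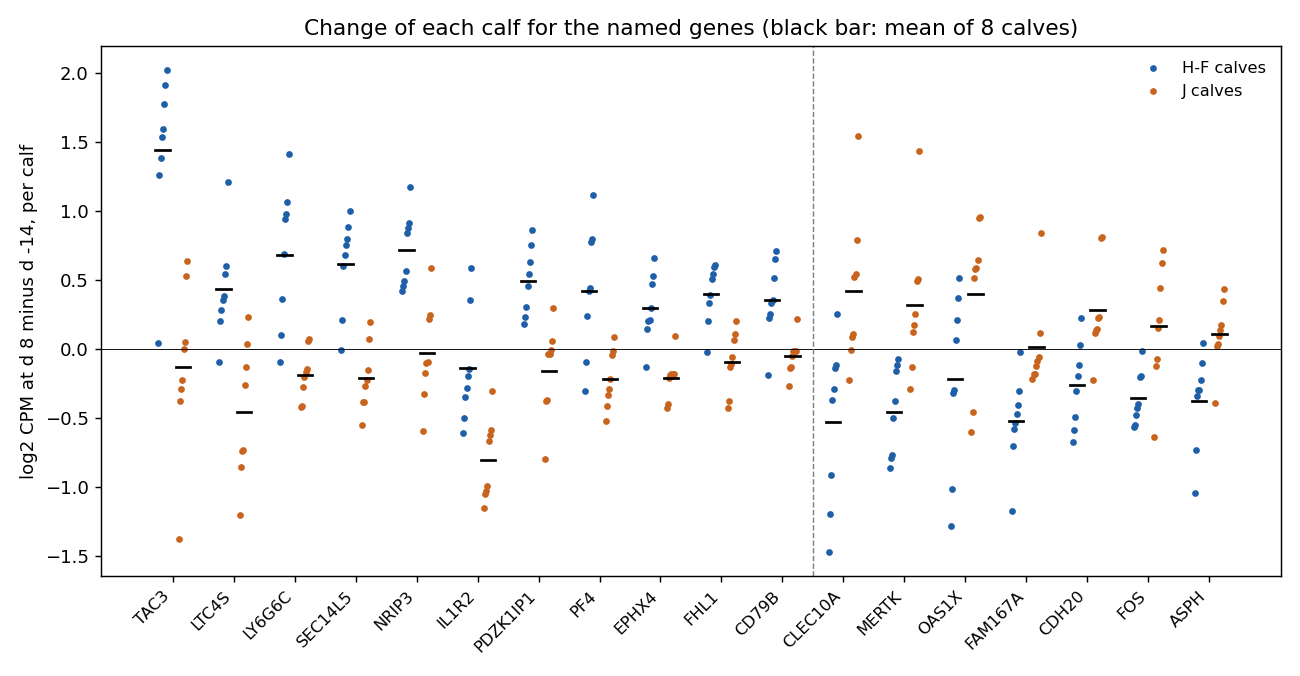
Change in log2 CPM from d -14 to d 8 for each calf and 18 named genes, H-F calves in blue and J calves in orange, with the mean of 8 calves as a black bar. Genes left of the dashed line had a lower mean change in J calves and genes right of it a higher one. The ranges of the breeds overlap for each gene, and for TAC3 they overlap through H-F calf 33 alone.

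Over all genes tested, the calf changes of the breeds did not overlap for 2 genes (0.0159%), 1 in each direction (0.00796% each). Among all splits of 16 calves into 8 and 8, full separation in either direction has a probability of 0.000155 for a gene. The share seen is close to that, so the count is not read as a result. All 8 J calves lay below all 8 H-F calves for ENSBTAG00000016516, whose J changes ran from -0.39 to -0.06 and H-F changes from -0.04 to 0.11. Its difference was small, -0.20 (SE 0.06, edgeR adjusted p = 0.655). All 8 J calves lay above for ENSBTAG00000004104, where a gap of 0.007 separated the nearest calves and H-F calf 25 lay at -1.28. Without that calf its difference was 0.21 rather than 0.34.

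Platelet genes were described as one of 6 gene lists with at least 3 tested members. Platelets carry RNA from their megakaryocyte parents and are part of a whole blood sample. The summed level of the 9 tested platelet genes in H-F calves was 331, 462 and 636 CPM at d -14 and 331, 652 and 832 CPM at d 8. In J calves it was 125, 306 and 405 CPM and then 109, 245 and 428 CPM. The sum was higher at d 8 in 7 of 8 H-F and 3 of 8 J calves. The median difference of the changes was -0.26, against 0.01 over all genes, and 7 of 9 members were below 0 (47.8% of all genes). Of the 9, 3 had an unadjusted p under 0.05, all lower in J calves, and 0 passed the adjusted threshold. The share with an unadjusted p under 0.05 was 5.76% of all genes and 15.5% of those with a symbol. Fewer platelets and less RNA per platelet cannot be told apart in such samples, which holds for each cell type below.

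The 3 platelet genes were PF4, THBS1 and GP6. PF4, a chemokine stored in platelet granules, was at 224, 320 and 496 CPM in H-F calves at d -14 and at 214, 492 and 661 CPM at d 8. In J calves it was at 74.4, 215 and 327 CPM and then at 60.9, 163 and 281 CPM. It was higher at d 8 in 6 of 8 H-F and 1 of 8 J calves, and the difference of the changes was -0.64 (SE 0.16, edgeR adjusted p = 0.655). PF4 rose in H-F calves by 0.42 (edgeR adjusted p = 0.0588). Its breed gap was -0.81 at d -14 and -1.48 at d 8. Thrombospondin, encoded by THBS1, also rose in H-F calves (0.76, edgeR adjusted p = 0.0212), with a change of 0.22 in J calves, and GP6, the platelet collagen receptor, had changes of 0.26 and -0.14. PPBP, another granule chemokine, differed by only -0.08 (SE 0.19). The count of 3 became 1 without H-F calf 20 or J calf 13 or 57 and 5 without J calf 6, and it was 1 without H-F calf 25 and J calf 85 together. The median of the list was -0.14 without J calf 7 and -0.41 without J calf 6.

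B cell genes had a lower change in J calves throughout the list. The difference was below 0 for 10 of 10 tested members (47.8% of all genes), with a median of -0.22. Of the 10, 4 had an unadjusted p under 0.05, beside 5.76% of all genes and 15.5% of those with a symbol, and 0 passed the adjusted threshold. CD79B, a signalling chain of the B cell receptor, was at 106, 168 and 247 CPM in H-F calves at d -14 and at 152, 203 and 297 CPM at d 8, and at 195, 285 and 377 CPM and then 226, 261 and 365 CPM in J calves. It was higher at d 8 in 7 of 8 H-F and 1 of 8 J calves, a difference of -0.41 (SE 0.10, edgeR adjusted p = 0.655). MS4A1, which encodes CD20, had a median of 242 CPM at d -14 and 308 CPM at d 8 in H-F calves and of 364 and 407 CPM in J calves (-0.33, SE 0.11). BANK1, a B cell scaffold protein, and VPREB3, of the surrogate light chain family, were the others (-0.24, SE 0.10, and -0.30, SE 0.14).

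In H-F calves MS4A1, CD22, BANK1 and CD79B rose at an edgeR adjusted p under 0.1, by 0.33 to 0.48 on the log2 scale, beside 2.64% of all genes that rose. In J calves 0 of the 10 B cell genes rose, where only 0.135% of all genes did, so that count says nothing about B cell genes. The breed gap of CD79B went from 0.75 at d -14 to 0.37 at d 8, with the H-F calves moving toward the level of the J calves. Summed over the 10 members, the level in H-F calves was 552, 920 and 1151 CPM at d -14 and 886, 1084 and 1269 CPM at d 8, and in J calves 983, 1364 and 1654 CPM and then 1061, 1460 and 2021 CPM. All 8 H-F calves had a higher sum at d 8, as did 6 of 8 J calves. Of the 10 genes, 8 were named by the study only at d -14, each at a higher level in J calves on that day. A change below 0 narrows such a gap, so this direction is not independent of how they came to have a symbol. The count of 4 was 2 without H-F calf 32 or 48 and 6 without H-F calf 20 or without both calves that stood apart.

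Interferon response genes had the opposite sign. The difference was above 0 for 15 of 15 tested members (52.2% of all genes), with a median of 0.37. Of the 15, 3 had an unadjusted p under 0.05, beside 5.76% of all genes and 15.5% of those with a symbol, and 0 passed the adjusted threshold. The median change was -0.03 in H-F calves and 0.24 in J calves. No member passed the threshold within either breed, where 5.77% of all genes did in H-F and 0.358% in J calves. So few genes passed that this count says nothing about interferon response genes. The summed level of the 15 genes was 1093, 1643 and 2434 CPM at d -14 and 811, 1583 and 2879 CPM at d 8 in H-F calves, and 789, 952 and 1288 CPM and then 801, 1154 and 2257 CPM in J calves. The sum was higher at d 8 in 6 of 8 calves of each breed, with a median log2 change of 0.10 in H-F and 0.49 in J calves. OAS1X, an interferon-induced sensor of double-stranded RNA, was at 95.7, 160 and 340 CPM in H-F calves at d -14 and at 76.6, 147 and 395 CPM at d 8. In J calves it was at 64.5, 91.4 and 131 CPM and then at 86.1, 125 and 177 CPM. It was higher at d 8 in 4 of 8 H-F and 6 of 8 J calves, with a difference of 0.62 (SE 0.27, edgeR adjusted p = 0.785). CD274, the checkpoint ligand PD-L1, was higher at d 8 in all J calves (by 0.03 to 2.34) and ranged from -1.23 to 0.68 in H-F calves (0.69, SE 0.32). IFIT5, an interferon-induced RNA-binding protein, differed by 0.37 (SE 0.17). The H-F changes of OAS1X ran from -1.29 in calf 27 to 0.51. Without H-F calf 27, 13 of 15 members stayed above 0, the median was 0.26 and 0 had an unadjusted p under 0.05. The count of 3 was also 0 without H-F calf 25 or J calf 6, 13 or 77 and 1 without any one of 5 calves (48 and 49 of the H-F, 7, 9 and 57 of the J), and it was 6 without J calf 60 and 5 without J calf 85. Of the 15, 11 were named by the study only at d -14, each at a lower level in J calves on that day. A change above 0 narrows such a gap, so this direction is not independent of how they came to have a symbol.

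**Figure D3:**
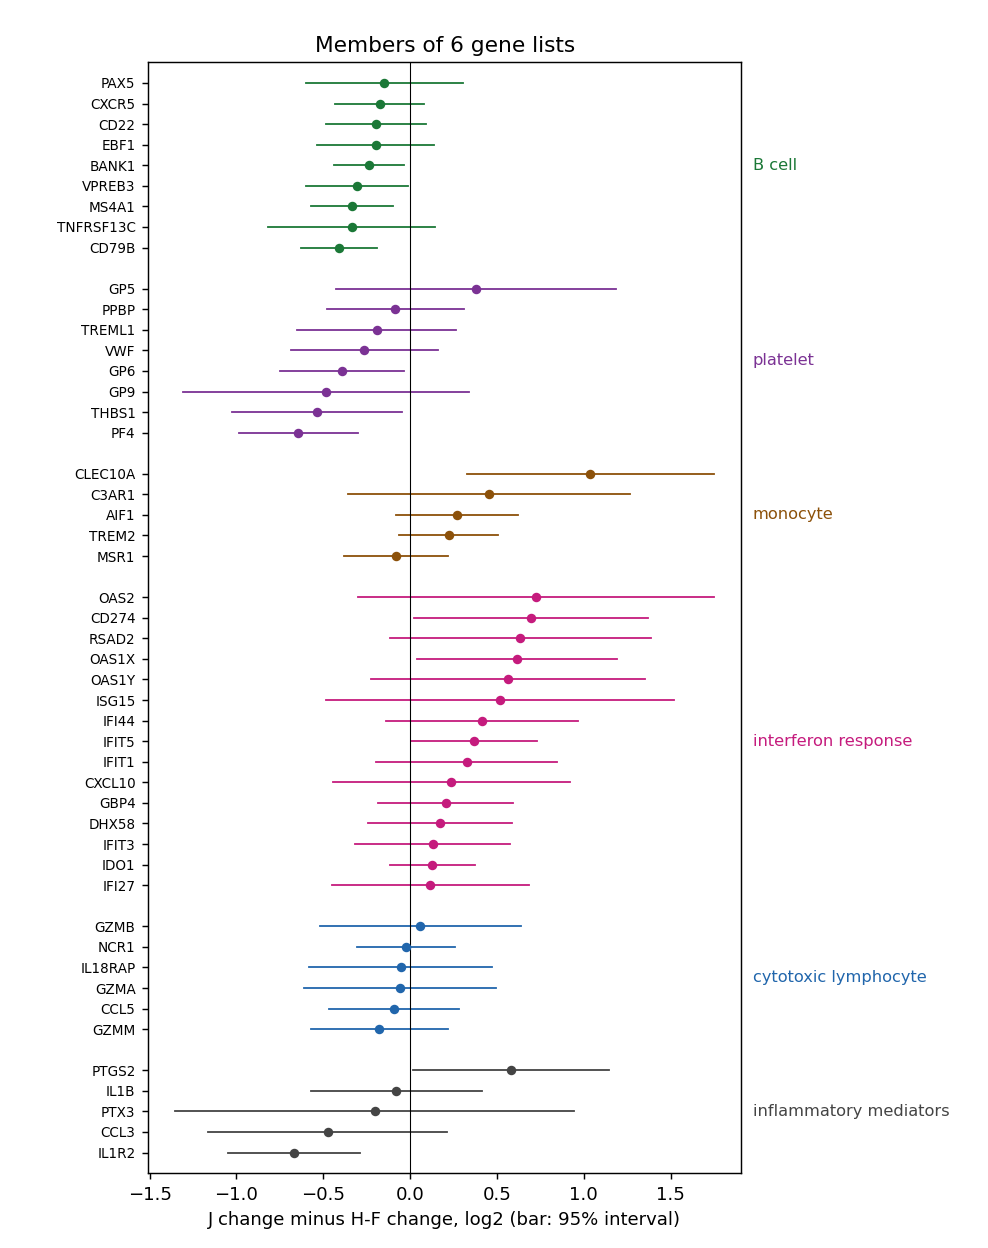
Breed difference in the change (J minus H-F, log2) for members of 6 gene lists, with the fitted value as a point and its 95% interval as a bar. All B cell genes drawn lie left of 0 and all 15 interferon response genes right of 0, and most of the intervals include 0.

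Of the 5 tested monocyte genes, 2 fell in H-F calves, where 3.13% of all genes fell. In J calves 0 fell, where only 0.223% of all genes did, so that count says nothing about monocyte genes. The difference was above 0 for 4 of 5 (52.2% of all genes), with a median of 0.27. Of the 5, 1 had an unadjusted p under 0.05 (5.76% of all genes). That 1 gene, CLEC10A, no longer passed the CPM filter without H-F calf 32, 33 or 56 and was then not tested. The count was 2 without J calf 7 and 3 without J calf 9, and the median was 0.13 without J calf 13. TREM2 and C3AR1, a lipid-sensing receptor and the receptor for a complement fragment, fell in H-F calves (-0.43 and -0.88, edgeR adjusted p = 0.0250 and 0.0794), with changes of -0.21 and -0.43 in J calves. CLEC10A, a lectin of macrophages and dendritic cells, had the largest difference of the 5, 1.04 (SE 0.34, adjusted p = 0.785), at a level under 1 CPM in all J libraries and a median of 1.35 CPM in H-F calves at d -14. CLEC10A passed the filter on low counts through the H-F libraries alone, so neither its difference nor the list's count that rests on it is read as a result. The scavenger receptor gene MSR1 differed by -0.08 (SE 0.14).

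Among 5 tested inflammatory mediators 1 had a higher and 1 a lower change in J calves at an unadjusted p under 0.05 (2.85% and 2.91% of all genes). The median difference, -0.20, ran from -0.51 without H-F calf 27 to -0.02 without H-F calf 25. IL1R2, the decoy receptor for interleukin-1, fell in J calves (-0.81, SE 0.14, edgeR adjusted p = 0.0130) and was lower at d 8 in 8 of 8 of them, with 1.43, 2.90 and 5.61 CPM at d -14 and 0.81, 1.58 and 4.39 CPM at d 8. In H-F calves it was at 6.85, 8.25 and 12.2 CPM and then at 4.78, 7.33 and 11.9 CPM (-0.14, SE 0.12, adjusted p = 0.527). The difference of the changes was -0.67 (SE 0.18, adjusted p = 0.693), and the changes of the breeds overlapped. PTGS2, the inducible enzyme of prostaglandin synthesis, fell in H-F calves (-0.81, edgeR adjusted p = 0.0283) and changed by -0.23 in J calves, a difference of 0.58 (SE 0.27). PTX3, a soluble pattern recognition molecule, rose in H-F calves by 1.16 (edgeR adjusted p = 0.0451), with a change of 0.95 in J calves and a difference of -0.20 (SE 0.55). PTX3 was near the filter on low counts (mean log2 CPM -0.09) and far lower in J calves, with breed gaps of -2.44 and -2.75 at d -14 and d 8. Its J change and its difference, which is also the list's median, are therefore not read as results. Without H-F calf 25 the PTX3 difference was 0.06. IL1B differed by -0.08 (SE 0.24). CCL3 (ENSBTAG00000003289) differed by -0.47 (SE 0.33), and ENSBTAG00000025250, which the study also annotates as this chemokine, by -0.08 (SE 0.25), and their counts are uncertain where reads were shared.

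Cytotoxic lymphocyte genes had small differences. The 6 tested members had differences between -0.18 and 0.06, 0 of 6 with an unadjusted p under 0.05 (5.76% of all genes). GZMM, a granzyme, had the smallest p of them, at -0.18 (SE 0.19, 95% interval -0.57 to 0.22). GZMB, another granzyme, changed by 0.45 in H-F and 0.51 in J calves, and IL18RAP, a subunit of the interleukin-18 receptor, by 0.44 and 0.39. The 95% interval of the difference was -0.52 to 0.64 for GZMB and -0.58 to 0.47 for IL18RAP on the log2 scale, so changes that are alike were not shown.

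Considered within each breed, 725 genes changed between d -14 and d 8 in H-F calves (5.77%, with 332 or 2.64% up and 393 or 3.13% down) and 45 in J calves (0.358%, with 17 or 0.135% up and 28 or 0.223% down) at an adjusted p under 0.1 in the same edgeR fit. Both sets had 32 genes in common, which is 4.41% of the H-F and 71.1% of the J genes, and all 32 had the same sign in both breeds. At an unadjusted p under 0.05 there were 2519 genes in H-F calves (8.98% up and 11.1% down) and 1265 in J calves (10.1%, with 5.79% up and 4.28% down). Without calf as a block the counts at the adjusted threshold were 2 and 0. Without H-F calf 48 the H-F count was 166 and without H-F calf 25 it was 340, and without J calf 85 the J count was 18. Among the 725 H-F genes, 627 (86.5%) had the same sign in J calves, against 61.7% of all genes. The H-F genes that rose had a median change of 0.38 in H-F and 0.13 in J calves, and those that fell had medians of -0.34 and -0.11. Among the 45 J genes, 44 (97.8%) had the same sign in H-F calves, with medians of 0.67 and 0.39 for those that rose and -0.69 and -0.61 for those that fell, in J and H-F calves respectively. Genes chosen for a change in one breed have values in that breed that are large by the choice itself, so the medians are given as a description. The interaction had an unadjusted p under 0.05 for 232 of the 725 genes, against 5.76% of all genes. It subtracts the H-F change on which these genes were chosen, so the choice itself raises this count. The count is therefore no evidence of a breed difference.

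Among the genes of smallest p within each breed, TAC3 passed in H-F calves and not in J calves, and others passed in both. ENSBTAG00000017733 fell in both breeds (-1.15, SE 0.14, in H-F calves and -0.77, SE 0.14, in J calves), and was lower at d 8 in 16 of 16 calves. ENSBTAG00000038748 fell as well (-2.14, SE 0.29, and -2.70, SE 0.29), again in 16 of 16 calves. Its medians were 648 and 116 CPM in H-F calves and 564 and 72.6 CPM in J calves at d -14 and d 8. The differences of the changes were 0.38 (SE 0.20) and -0.56 (SE 0.39).

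The size of the change over all genes overlapped between the breeds. The root mean square of the log2 changes was 0.320 ± 0.095 in H-F calves and 0.307 ± 0.055 in J calves (mean ± SD, n = 8 each), a difference of -0.01 (exact permutation test over the calves, two-sided p = 0.774). It ran from 0.242 to 0.530 in H-F calves and from 0.222 to 0.389 in J calves. Without H-F calf 25 the sign turned (0.02, exact permutation p = 0.529). Pairs of H-F calves had a mean correlation of their changes across genes of 0.226, pairs of J calves 0.128 and mixed pairs 0.155. Genes are not independent replicates, so these correlations are descriptions.

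**Figure D4:**
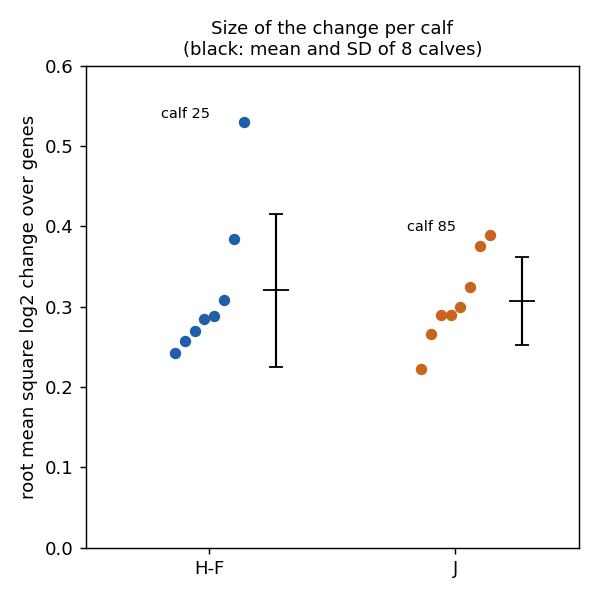
Root mean square log2 change over the genes tested for each calf, by breed, with the mean and SD of 8 calves in black. H-F calf 25 lies highest, at 0.530, and the other H-F calves lie between 0.242 and 0.384, a range that the J calves overlap.

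Standing breed differences were chosen at d 1, in libraries that the comparison did not use, to see whether the change altered them. At d 1, 550 of 12338 genes differed at an adjusted p under 0.1 and at least 1.5-fold (4.46%), 327 higher and 223 lower in J calves. Of these, 54 (9.82%) had an unadjusted p under 0.05 for the breed difference in the change, against 5.76% of all genes. Over all 550 the gap narrowed for 294 (53.5%) and widened for 256, and its median was 0.64 at d -14 and 0.66 at d 8 on the log2 scale. Among the 54, the gap widened for 9 genes that were higher and 25 that were lower in J calves at d 1. It narrowed for 11 that were higher and 9 that were lower. The d 1 libraries came from the same calves.

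The leading genes were also read at d 1. The changes from d -14 to d 1 and to d 8 share the d -14 libraries, so the values are given side by side and are not independent. TAC3 changed by 0.92 to d 1 and 1.44 to d 8 in H-F calves, and by -0.35 and -0.13 in J calves. LY6G6C changed by 0.47 and 0.68 in H-F calves and by -0.27 and -0.19 in J calves. PF4 changed by 0.32 and 0.42 in H-F calves, and by -0.21 and -0.22 in J calves. MERTK changed by -0.33 and -0.46 in H-F calves and by 0.06 and 0.32 in J calves. Other leading genes had an H-F change near 0 at d 1. LTC4S changed by 0.03 and 0.46 in H-F calves and by -0.38 and -0.51 in J calves. FOS changed by -0.04 and -0.35 in H-F calves and by 0.10 and 0.16 in J calves. IL1R2 had changes of -0.29 and -0.14 in H-F calves and of 0.06 and -0.81 in J calves, so its J change was near 0 at d 1 and below 0 at d 8.

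**Figure D5:**
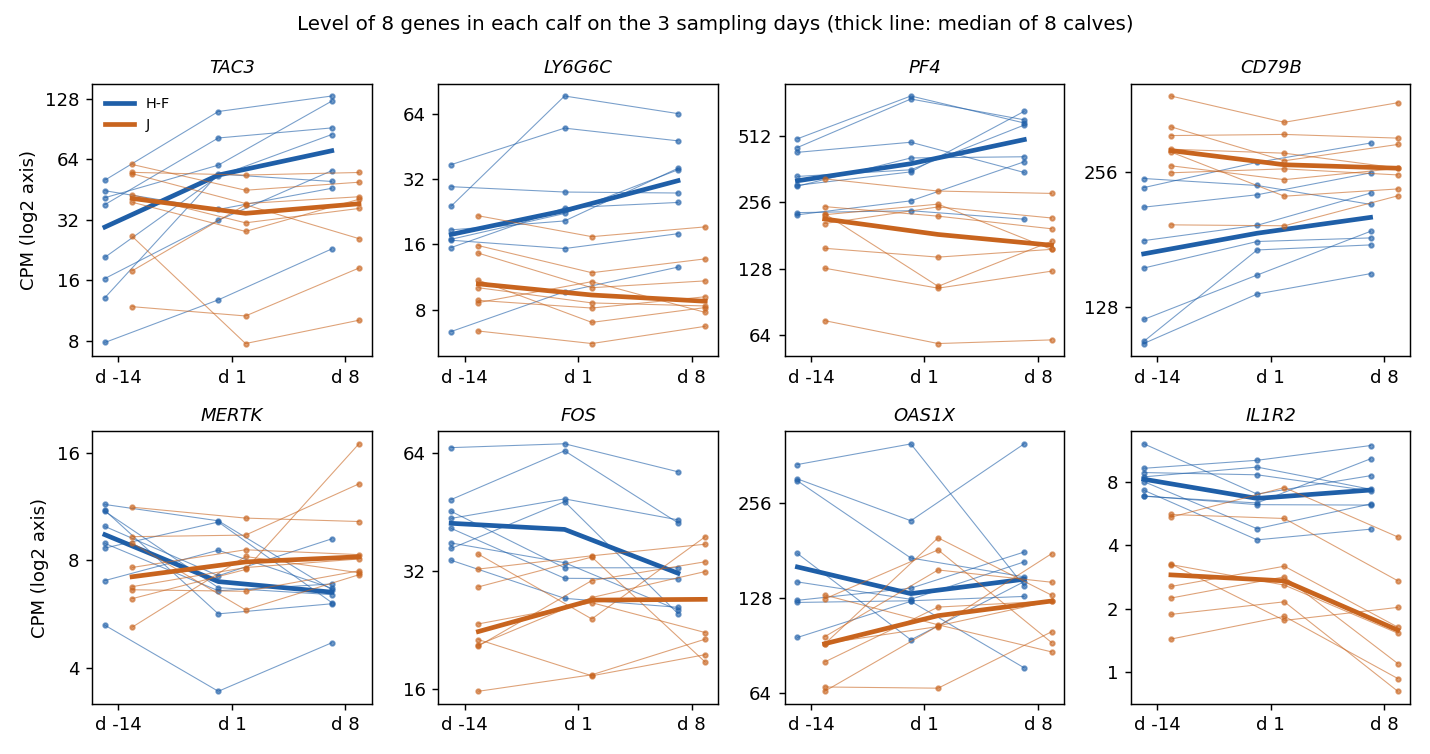
Level of 8 genes in CPM (log2 axis) in each calf at d -14, d 1 and d 8, with a thin line per calf and a thick line for the median of 8 calves, H-F in blue and J in orange. The H-F median of TAC3 climbs across the 3 days while that of the J calves does not, and the J median of IL1R2 drops between d 1 and d 8.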

How the data were processed

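The authors prepared poly(A)-selected, unstranded libraries from Tempus-tube whole blood, sequenced paired ends, checked reads with FastQC 0.10.0, aligned them to bovine genome UMD3.1 with STAR and used HTSeq to assign unique alignments with under 2 mismatches to Ensembl genes. They deposited 1 table of raw counts with 24616 genes, 92 spike-in sequences and 48 libraries. Their STAR and HTSeq versions: not given in the sources used here. Reads of overlapping antisense genes cannot be separated without strand, and reads shared by near-identical genes were discarded.

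Spike-ins (0.174 to 0.322% of counts) were left out, and genes with a CPM above 1 in at least 8 of 32 libraries kept. R 4.3.3 and edgeR 4.0.16 were used, with TMM factors, calf as a block, the d 8 change within each breed (14 residual df), quasi-likelihood tests and Benjamini-Hochberg adjustment over 12566 genes. The threshold was an adjusted p under 0.1, without the 1.5-fold minimum that the study also set. Log2 CPM used a prior count of 2. Calf identity comes from the library titles: libraries of a calf deviated together (correlation 0.389 to 0.751 in 16 of 16 calves), and the common biological coefficient of variation was 0.114 with the block and 0.188 without. The study removed 1 J calf, not named in its text. All 16 calves were kept here, and each was left out in turn. Other alternatives used limma 3.58.1, DESeq2 1.42.0, other scaling, filters, thresholds and all 48 libraries. The code was tested on simulated data. Intervals of fitted values use the test's standard error.

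Symbols come from the study's supplementary gene lists (800 genes). No sequence or coordinate was used. The members, lists and rules were chosen with earlier results of these data known. Genes are named by this rule: the 12 of smallest interaction p in each direction, the smallest p of each list with at least 3 tested members (6 of 22 lists), the 4 leading changes within each breed and genes without overlap. Of genes without a symbol only those leading are named. Some list members entered the counts but are not reported here by name. Further list members named in the text were chosen after their values were seen. Figures used Python 3.11.15 and matplotlib 3.10.9.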

Additional observations from a re-analysis of the deposited data

Results flagged for a closer look

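The changes of the 8 calves of each breed were examined for a single calf far from the others, for the named genes and for the size of the change, 76 groups in all. Of these 10 stood out. The cut-off is set to pass about 1 in 20 independent groups. The groups here share the same calves, and most of the genes were chosen by their values. That rate therefore does not apply, and the count of 10 is not read as an excess. H-F calf 33 had a TAC3 change of 0.0402, where the other H-F calves had 1.26 to 2.02. H-F calf 33 was also apart for ENSBTAG00000047331 (-0.0328, others -3.68 to -1.96). J calf 13 was apart for MERTK (1.44, others -0.29 to 0.50) and FAM167A (0.843, others -0.22 to 0.12). J calf 60 was apart for EPHX4 (0.0957, others -0.43 to -0.18) and ENSBTAG00000026851 (0.286, others -0.35 to -0.06).

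H-F calf 25 was apart for ENSBTAG00000005102 (-1.03, others -0.27 to -0.08) and ENSBTAG00000004104 (-1.28, others -0.33 to -0.02). For the same genes among J calves, calf 6 was apart at -0.211 (others 0.07 to 0.30) and calf 9 at 0.357 (others -0.01 to 0.15).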

How the results depend on the processing

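The count of 0 for the breed difference in the change became 1 with all 48 libraries (TAC3), 1 with no filter on low counts (TAC3) and 18 with DESeq2, of which 15 are genes chosen here by rule and all 18 had an unadjusted edgeR p under 0.05. It was 0 to 2 when each calf was left out: 2 without H-F calf 33 or J calf 57, 1 without H-F calf 27 or J calf 77. It stayed at 0 with RLE size factors, limma-trend, a robust prior, a mean count of at least 10, and with H-F calf 25 and J calf 85 both left out, an alternative chosen after seeing the data (559 genes at an unadjusted p under 0.05).

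With no replicate block, which ignores that the libraries of a calf are paired, the interaction had 0 genes (186 at an unadjusted p under 0.05), the H-F change 2 and the J change 0. The difference of ENSBTAG00000038748 turned to 0.45 without the block. The H-F count of 725 became 1509 with all 48 libraries, 313 at an adjusted p under 0.05, 119 with a 1.5-fold minimum, 386 without both calves that stood apart, and 166 to 865 when each calf was left out. Besides calves 25 and 48, leaving out H-F calf 33 or 49 also lowered it by over 1.5 times (401 and 411). The J count of 45 became 85 with all 48 libraries, 152 with DESeq2 (85 up and 67 down), 116 with no filter, 77 with a mean count of at least 10, 25 at an adjusted p under 0.05, 27 with a 1.5-fold minimum, and 18 to 73 when each calf was left out (19 without J calf 60, 73 without J calf 77). The size of the change per calf, J minus H-F, was 0.00351 as a median absolute change and -0.0249 to 0.0172 when each calf was left out. For the 37 named genes 898 values kept their direction and side of the threshold, 23 came to pass it and 1 turned sign. The causes were not tested.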
